A study of Mus musculus with 39 samples.

Results

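Islets isolated from mice on day 9.5 of pregnancy were compared with islets from non-pregnant mice, over the whole set of genes on an expression array. The comparison holds the 4 arrays labelled as islets of pregnancy day 9.5 and the 4 arrays labelled non-pregnant, which are 8 of the 39 arrays of the series. Both groups are female mice of the C57bl6/J strain and wild type, and each array is labelled as a biological replicate numbered 1 to 4. The labels used here state neither the age of the mice nor how many animals gave the islets of 1 array. The p-values below therefore measure spread between arrays, estimated over 31 arrays of 8 groups of this strain, the compared 8 arrays among them. The standard errors (SE) use the same estimate. Total RNA of whole islets was measured on the Affymetrix Mouse Gene 1.0 ST array, and the values are on a log2 scale, so that a difference of 1 is a doubling. Each gene was read from 1 probe set, the one with the highest mean over all arrays where a gene had several, which gave 19938 genes.

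Islets of Langerhans are clusters of endocrine cells in the pancreas, most of which are insulin-secreting beta cells in the mouse. During pregnancy the mother's tissues resist insulin, and her beta cells secrete more and divide. Prolactin and placental lactogens act on beta cells through the prolactin receptor and the transcription factor STAT5, and serotonin made within the islet is part of this response in the mouse. An islet preparation also holds alpha, delta, PP, endothelial and immune cells and some exocrine tissue, and in bulk RNA fewer cells of a type cannot be told apart from less RNA per cell.

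A gene was called where its adjusted p fell under 0.05 in limma's moderated test with Benjamini-Hochberg adjustment over all 19938 genes. By that rule 19.4% of genes were called, 11.6% higher and 7.74% lower at day 9.5 than in non-pregnant islets. The median difference over all genes was -0.02, and the median size of a difference among the called genes was 0.35. In 8.97% of all genes the 4 day 9.5 arrays all lay above the 4 non-pregnant arrays, and in 4.37% they all lay below. With genes split by mean level into 4 bins of near equal size, the brightest bin held 1296 called higher and 118 called lower, whereas the bin next to the dimmest held 226 higher and 789 lower. The SD of the values over genes was 1.87 to 1.95 on the day 9.5 arrays and 1.76 to 1.84 on the non-pregnant arrays, without overlap. With that SD as a covariate 793 genes were called (545 higher, 248 lower), and after another quantile normalization 2356 were called (1316 higher, 1040 lower). Its part in the results was not tested, and counts under these settings stand beside many of the gene groups below. With each array centred on its median, the split was 3824 higher and 425 lower, against 2321 higher and 1543 lower in the values as deposited. The medians carry 1 decimal and were 5.8 or 5.9 at day 9.5 and 5.9 or 6.0 in non-pregnant islets. Centring therefore moved arrays against each other by whole rounding steps.

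Promoter sequences of 6 genes that were called higher are shown because they hold letters known as binding motifs of regulators of their gene groups. Each runs 5′ to 3′ on the gene's own strand from 250 bases before to 50 bases after the annotated start (RefSeq, build GRCm38.p6). In the promoter of Cish, an inhibitor of cytokine signalling and a standard STAT5 target, at chr9:107296409-107296708 on the plus strand, the capitals mark TTCNNNGAA, the letters of a STAT5 site.
Cish: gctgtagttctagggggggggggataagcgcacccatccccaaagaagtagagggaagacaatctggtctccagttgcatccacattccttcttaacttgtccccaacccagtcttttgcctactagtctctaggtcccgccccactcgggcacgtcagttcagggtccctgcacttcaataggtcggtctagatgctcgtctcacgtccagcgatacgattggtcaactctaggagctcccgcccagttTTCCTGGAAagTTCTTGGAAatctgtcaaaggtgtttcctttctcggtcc
In the promoters of Top2a (topoisomerase that untangles DNA before division) at chr11:99024140-99024439, Mki67 (the Ki-67 proliferation antigen) at chr7:135716330-135716629 and Cdk1 (the kinase that starts mitosis) at chr10:69352863-69353162, all on the minus strand, the capitals mark TTTGAA or its reverse complement TTCAAA, the letters of the cell-cycle homology region.
Top2a: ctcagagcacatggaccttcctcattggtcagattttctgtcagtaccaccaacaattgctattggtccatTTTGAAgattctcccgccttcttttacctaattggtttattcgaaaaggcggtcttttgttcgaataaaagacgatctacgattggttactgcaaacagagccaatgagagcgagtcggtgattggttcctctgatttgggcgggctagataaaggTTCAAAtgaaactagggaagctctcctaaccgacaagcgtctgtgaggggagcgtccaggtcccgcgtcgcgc
Mki67: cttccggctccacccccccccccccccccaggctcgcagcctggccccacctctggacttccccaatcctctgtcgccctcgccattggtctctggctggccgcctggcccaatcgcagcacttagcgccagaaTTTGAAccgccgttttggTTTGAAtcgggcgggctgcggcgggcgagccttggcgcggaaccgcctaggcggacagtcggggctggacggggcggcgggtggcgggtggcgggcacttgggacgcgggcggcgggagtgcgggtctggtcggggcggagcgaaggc
Cdk1: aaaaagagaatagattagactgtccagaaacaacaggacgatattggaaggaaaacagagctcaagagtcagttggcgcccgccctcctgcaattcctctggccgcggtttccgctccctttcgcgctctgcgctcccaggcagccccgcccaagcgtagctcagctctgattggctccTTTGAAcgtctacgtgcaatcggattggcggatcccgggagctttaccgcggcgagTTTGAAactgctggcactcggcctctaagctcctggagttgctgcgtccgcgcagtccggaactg
In the promoters of Hspa5 (the chaperone BiP) at chr2:34771840-34772139 and Derl3 (a protein of the pathway that removes misfolded proteins from the endoplasmic reticulum) at chr10:75893148-75893447, both on the plus strand, the capitals mark the endoplasmic reticulum stress element on either strand, which is CCAAT, then 9 bases of any kind, then CCACG.
Hspa5: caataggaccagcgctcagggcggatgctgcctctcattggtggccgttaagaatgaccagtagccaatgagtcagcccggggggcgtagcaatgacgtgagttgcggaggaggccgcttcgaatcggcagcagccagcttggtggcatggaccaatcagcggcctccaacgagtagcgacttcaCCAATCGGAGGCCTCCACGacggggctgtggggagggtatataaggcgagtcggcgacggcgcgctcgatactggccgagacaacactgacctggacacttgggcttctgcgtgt
Derl3: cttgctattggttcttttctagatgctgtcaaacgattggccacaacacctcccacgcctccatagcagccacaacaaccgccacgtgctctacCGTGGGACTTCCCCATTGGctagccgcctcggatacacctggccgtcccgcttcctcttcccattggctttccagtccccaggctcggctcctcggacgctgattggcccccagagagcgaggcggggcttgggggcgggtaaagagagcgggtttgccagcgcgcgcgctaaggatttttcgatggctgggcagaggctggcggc

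Both strands of every promoter were searched, and a gene counted where any of its windows held the letters. TTTGAA occurred in 30 of the 43 mitosis genes with a promoter sequence (69.8%), in 0 of 27 genes of folding in the endoplasmic reticulum and in 20.2% of all 27025 genes with one. The endoplasmic reticulum stress element occurred in 10 of the 27 folding genes (37.0%), in 0 of the 43 mitosis genes and in 37 of all 27025 genes (0.137%). The 10 genes were Calr, Canx, Creld2, Derl3, Dnajc3, Ero1b, Hsp90b1, Hspa5, Pdia6 and Syvn1. TTCNNNGAA occurred in 3 of 19 lactogen and STAT5 genes (15.8%), namely Bcl6, Cish and Socs3, and in 9.55% of all genes. A match to TTCNNNGAA can end in TTTGAA, so these motifs can overlap. A match is a description of letters in a window, and no binding was measured here.

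Serotonin synthesis gave the largest rise of all 19938 genes. Tph1 (chr7:46644641-46672537), the rate-limiting enzyme of serotonin synthesis outside the brain, read 8.0, 8.8, 8.7 and 8.8 at day 9.5, against 4.0, 4.3, 4.6 and 4.9 in non-pregnant islets. Every day 9.5 array stood at least 3.1 above every non-pregnant array. The difference was 4.12 ± 0.22 (SE, n = 4 each), or 17.4-fold, with a limma adjusted p of 5.91e-15. Tph2, the neuronal form of the same enzyme, read 7.2, 7.1, 7.3 and 7.5 at day 9.5, against 5.1, 4.8, 5.1 and 4.9 in non-pregnant islets, a difference of 2.30 ± 0.13 (limma adjusted p = 4.43e-14). Its groups did not overlap either. Of 10 genes of serotonin synthesis and storage 7 rose and 0 fell. Of 12 genes of breakdown, uptake and receptors 0 rose and 1 fell (0 without day 9.5 replicate 3 or 4 or non-pregnant replicate 4). Over all genes, 11.6% were called higher and 7.74% lower. The other 5 risers were small next to the hydroxylases. They were Slc18a1 (vesicular monoamine transporter, 0.50), Pcbd1 (0.40), Pts (0.32) and Qdpr (0.25), which make or recycle the hydroxylases' cofactor, and Ddc (the decarboxylase that makes serotonin, 0.38). With the array SD as a covariate Tph1, Tph2 and Pcbd1 kept their calls, and Slc18a1 (adjusted p = 0.171), Ddc (adjusted p = 0.221), Pts (adjusted p = 0.283) and Qdpr lost them. The serotonin receptor genes Htr2b and Htr1d were not called. Htr2b read 4.4, 4.4, 4.3 and 4.7 at day 9.5, against 4.3, 4.5, 4.4 and 4.6 in non-pregnant islets, a difference of 0.00 ± 0.10. Htr1d differed by -0.10 ± 0.09. Both receptor genes were among the dimmest 25% of genes, where values near background limit what a lack of difference can show.

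**Figure D1:**
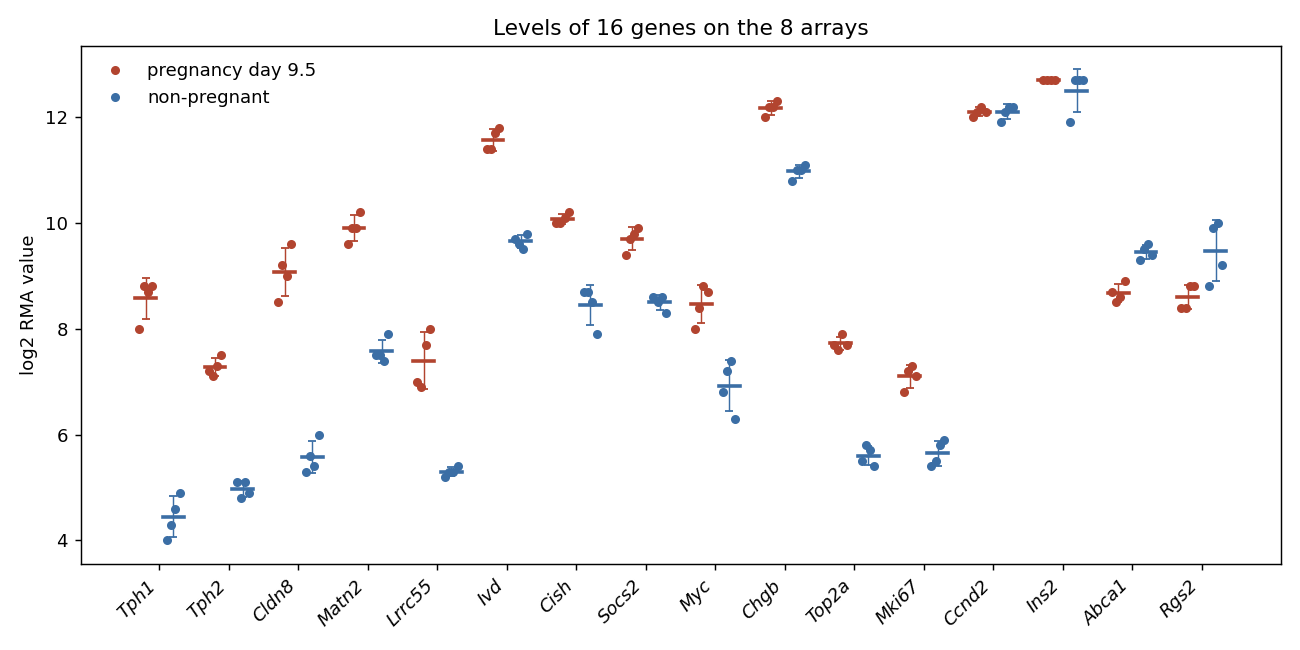
Log2 RMA values of 16 genes on each of the 4 day 9.5 arrays (left of each pair) and the 4 non-pregnant arrays (right of each pair), with horizontal bars at the group means and error bars of 1 SD. Tph1 sits at 8.0 to 8.8 against 4.0 to 4.9, while Ccnd2 sits at 12.0 to 12.2 against 11.9 to 12.2.

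Lactogen signalling genes moved in both directions: of 24 measured, 6 rose and 5 fell, with a median of 0.01, and 3 fell without day 9.5 replicate 2 or 3 or non-pregnant replicate 2. The covariate of array SD left 5 higher and 4 lower. Among 19 STAT5 targets and inhibitors 5 rose and 2 fell, with a median of 0.05, beside 11.6% of all genes called higher and 7.74% lower. The number of these 19 that fell was 0 to 2 with single arrays left out. The genes described next rose. Cish read 10.0, 10.0, 10.1 and 10.2 at day 9.5, against 8.7, 8.7, 8.5 and 7.9 in non-pregnant islets. The groups lay 1.3 apart at their nearest, non-pregnant replicate 4 was the lowest array, and the difference was 1.62 ± 0.20 (limma adjusted p = 3.76e-07). Socs2, another feedback inhibitor of cytokine receptors, read 9.4, 9.7, 9.8 and 9.9 at day 9.5, against 8.6, 8.5, 8.6 and 8.3 in non-pregnant islets, a difference of 1.20 ± 0.11. Myc, a transcription factor of growth, read 8.0, 8.4, 8.8 and 8.7 at day 9.5, against 6.8, 7.2, 7.4 and 6.3 in non-pregnant islets, a difference of 1.55 ± 0.22. Both genes kept all day 9.5 arrays above all non-pregnant arrays. Tnfrsf11b, the decoy receptor osteoprotegerin, read 7.3 to 7.6 at day 9.5, against 6.0 to 6.5 in non-pregnant islets, a difference of 1.12 ± 0.16. Akt1, a kinase of growth and survival signalling, rose by 0.55 ± 0.06. These genes kept their calls with the array SD as a covariate.

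Of 5 measured receptors and transducers of the same pathway 1 rose and 3 fell, beside 11.6% of all genes called higher and 7.74% lower. Stat3, a transcription factor of cytokine receptors, read 9.8, 9.6, 9.7 and 9.8 at day 9.5, against 9.6, 9.4, 9.5 and 9.4 in non-pregnant islets. The groups met at 9.6, and the difference was 0.25 ± 0.07 (limma adjusted p = 0.0137). Its adjusted p was 0.31 with the array SD as a covariate, 0.294 after another quantile normalization, 0.0593 with only the 8 arrays compared, 0.0569 without day 9.5 replicate 4 and 0.0563 without non-pregnant replicate 4. Ghr, the growth hormone receptor, read 9.5, 9.4, 9.5 and 9.5 at day 9.5, against 9.8, 9.8, 10.0 and 9.9 in non-pregnant islets. All 4 day 9.5 arrays were below the non-pregnant arrays, by -0.40 ± 0.08 (limma adjusted p = 0.000633). Stat5a differed by -0.28 ± 0.07, and its adjusted p was 0.415 with the array SD as a covariate. Stat5b differed by -0.22 ± 0.07, and its adjusted p passed 0.05 without non-pregnant replicate 2 (0.0551) or 3 (0.0582). With arrays centred on their medians 7 genes of the list were called higher and 1 lower, and Stat5a and Stat5b were not called. Bcl6, a repressor that STAT5 acts on in other tissues, read 5.5, 5.7, 5.7 and 5.5 at day 9.5, against 5.9, 5.5, 5.5 and 5.7 in non-pregnant islets, with no difference beyond that spread (-0.05 ± 0.14).

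The next largest rises were of genes outside these pathways. Cldn8 (chr16:88560826-88563183), a claudin of tight junctions, read 8.5, 9.2, 9.0 and 9.6 at day 9.5, against 5.3, 5.6, 5.4 and 6.0 in non-pregnant islets. This 3.50 ± 0.18 difference (11.3-fold) left a gap of 2.5 between the groups. Of 15 measured claudins, Cldn8 was the only one called higher, and 5 were called lower by -0.45 to -0.25. Over all genes, 11.6% were called higher and 7.74% lower. Without day 9.5 replicate 4 or non-pregnant replicate 4 only 2 claudins were called lower, and with the array SD as a covariate 1 was. Matn2, a matrilin of the extracellular matrix, read 9.6, 9.9, 9.9 and 10.2 at day 9.5, against 7.5, 7.5, 7.4 and 7.9 in non-pregnant islets, a difference of 2.32 ± 0.12. Lrrc55, an auxiliary subunit of BK potassium channels, read 7.0, 6.9, 7.7 and 8.0 at day 9.5, against 5.2, 5.3, 5.3 and 5.4 in non-pregnant islets. Its day 9.5 arrays split into a lower and a higher pair, both above the non-pregnant arrays (2.10 ± 0.17). Its difference from non-pregnant islets was -0.13, 0.35, 2.10, 3.12, 3.65 and 4.28 at days 3.5, 6.5, 9.5, 12.5, 15.5 and 18.5, so day 9.5 was the first of these days with a called rise and the later days read higher.

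Metabolic and granule genes were also among the largest rises. Ivd, an enzyme of leucine breakdown, read 11.4, 11.4, 11.7 and 11.8 at day 9.5, against 9.7, 9.6, 9.5 and 9.8 in non-pregnant islets, a difference of 1.92 ± 0.10. Ehhadh, which breaks down fatty acids in peroxisomes, read 7.9, 8.0, 8.1 and 8.2 at day 9.5, against 6.6, 6.7, 6.7 and 6.6 in non-pregnant islets, a difference of 1.40 ± 0.10. Neither gene's groups overlapped, yet the other genes of their pathways moved far less. Of 17 branched-chain amino acid genes 8 rose, beside 11.6% of all genes called higher, with a list median of 0.25. The number that rose was 4 without day 9.5 replicate 4, 3 after another quantile normalization and 1 with the array SD as a covariate. Of 19 fatty acid oxidation genes 2 rose, beside 11.6% of all genes called higher. Chgb, chromogranin B of the secretory granule, read 12.0, 12.2, 12.2 and 12.3 at day 9.5, against 10.8, 11.0, 11.0 and 11.1 in non-pregnant islets, a difference of 1.20 ± 0.08. Car8 (1.67 ± 0.10), D17H6S56E-5 (1.90 ± 0.17), Lonrf3 (1.55 ± 0.15), Tmem255a (1.55 ± 0.13), Cip2a (1.50 ± 0.13) and Neb (1.50 ± 0.11) completed the 20 largest rises together with cell-cycle genes. Cip2a codes for an inhibitor of the phosphatase PP2A, and Neb for nebulin of muscle thin filaments.

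Genes of mitosis rose almost as a whole: 49 of 54 measured were called higher and 0 lower, with a median difference of 0.81, against a median of -0.02 over all genes. In 47 of them all 4 day 9.5 arrays were above all 4 non-pregnant arrays. The list's mean value was 6.06 to 6.33 on the day 9.5 arrays and 5.28 to 5.37 on the non-pregnant arrays. The array SD as a covariate left 43 called higher, and after another quantile normalization 50 were called. Leaving out 1 array at a time gave 47 to 49.

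Chromosome and cytokinesis genes moved most. All 11 rose, with a median of 1.00, against 17 of 19 spindle and kinetochore genes (0.82) and 21 of 24 cyclins, kinases and regulators (0.65). Top2a (chr11:98992947-99024199) read 7.7, 7.6, 7.9 and 7.7 at day 9.5, against 5.5, 5.8, 5.7 and 5.4 in non-pregnant islets. The groups were 1.8 apart at their nearest, and the difference was 2.12 ± 0.16, or 4.36-fold (limma adjusted p = 3.14e-11). Mki67 (chr7:135689784-135716450) read 6.8, 7.2, 7.3 and 7.1 at day 9.5, against 5.4, 5.5, 5.8 and 5.9 in non-pregnant islets, a difference of 1.45 ± 0.14. Its groups also did not overlap. Among the kinases and cyclins, Pbk read 7.2, 7.6, 7.5 and 7.2 at day 9.5, against 5.4, 5.5, 5.9 and 5.6 in non-pregnant islets. Ccna2, cyclin A2 of S phase and mitotic entry, rose by 1.50 ± 0.12, and Plk1, a kinase of spindle assembly, by 1.12 ± 0.09. Prc1 (midzone microtubules, 1.57 ± 0.13), Tpx2 (spindle assembly, 1.48 ± 0.14), Kif11 (the spindle motor Eg5, 1.45 ± 0.15) and Anln (anillin of the cleavage furrow, 1.43 ± 0.12) rose to a like extent.

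Cdk1 read 6.5, 6.2, 6.9 and 6.5 at day 9.5, against 5.9, 5.8, 6.0 and 5.9 in non-pregnant islets, a smaller difference of 0.62 ± 0.14 with day 9.5 replicate 2 nearest to the non-pregnant arrays. Its adjusted p was 0.00194 in the values as deposited and 0.13 with the array SD as a covariate. Foxm1, a transcription factor of mitotic genes, read 5.9, 5.6, 6.2 and 6.1 at day 9.5, against 5.3, 5.3, 5.2 and 5.3 in non-pregnant islets, a difference of 0.68 ± 0.10. The 5 mitosis genes not called were Aurkb (0.25 ± 0.09, adjusted p = 0.0555), Spc24 (0.28), Ndc80 (0.28), Pttg1 (0.05) and Mybl2 (-0.20). Pttg1 read between 6.6 and 6.7 on all 8 arrays.

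**Figure D2:**
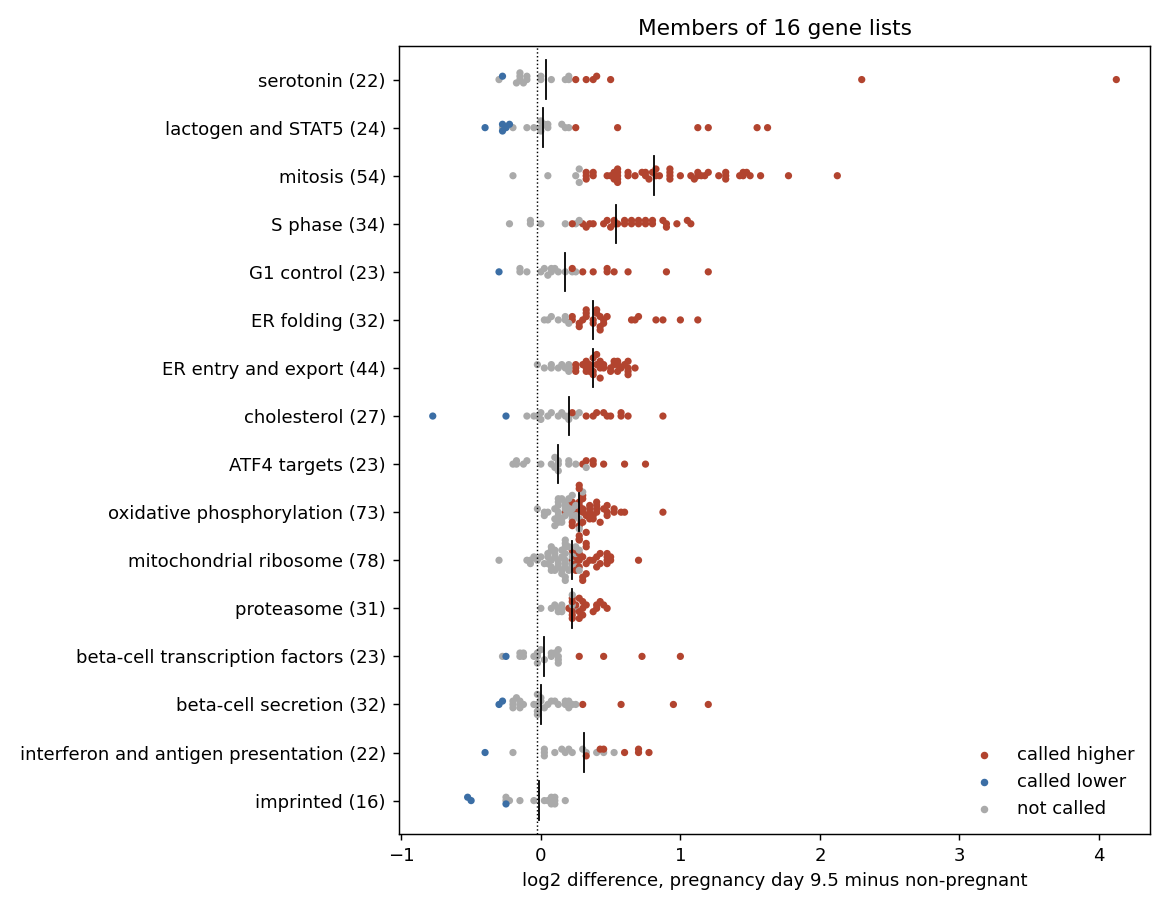
Log2 differences, day 9.5 minus non-pregnant, of each measured member of 16 gene lists (number of members in brackets), with a short vertical bar at the list's median and a dotted line at the median of all genes. Mitosis lies furthest to the right with a median of 0.81, while beta-cell secretion has a median of 0.00 with Chgb alone past 1.

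S-phase genes rose less than mitosis genes did, with 27 of 34 called higher, 0 lower and a median of 0.54. The number called higher was 19 with the array SD as a covariate and 28 after another quantile normalization. Mcm3, a subunit of the replicative helicase, read 6.5, 6.6, 6.7 and 6.8 at day 9.5, against 5.3, 5.9, 5.5 and 5.6 in non-pregnant islets, a difference of 1.07 ± 0.13. Pcna, the sliding clamp of DNA polymerases, read 8.6, 8.8, 8.9 and 8.8 at day 9.5, against 7.8, 7.9, 7.9 and 7.6 in non-pregnant islets, a difference of 0.97 ± 0.10. Neither gene's groups overlapped. Of 5 nucleotide supply genes 4 rose, and Rrm2, a subunit of ribonucleotide reductase, rose by 1.05 ± 0.11.

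Control of entry into the cycle moved in part. Of 23 genes of G1 control 9 rose and 1 fell, beside 11.6% of all genes called higher and 7.74% lower. Without non-pregnant replicate 4 the number that fell was 2. With the array SD as a covariate 4 rose and 0 fell, and after another quantile normalization 6 rose and 1 fell. Ccnd2, the D-type cyclin prominent in beta cells, read 12.0, 12.1, 12.2 and 12.1 at day 9.5, against 11.9, 12.1, 12.2 and 12.2 in non-pregnant islets. The groups overlapped throughout, and the difference was 0.00. Ccnd1 read 10.1, 10.1, 10.2 and 10.1 at day 9.5, against 10.0, 9.7, 9.8 and 9.5 in non-pregnant islets, a difference of 0.38 ± 0.10 (limma adjusted p = 0.00721). Its adjusted p was 0.0553 without non-pregnant replicate 4 and 0.402 with the array SD as a covariate. Ccnd3 differed by -0.15 ± 0.09 and was not called.

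Among inhibitors of the cycle, Cdkn2c, the INK4 protein p18, rose most. It read 6.9, 7.5, 7.6 and 7.4 at day 9.5, against 6.1, 6.3, 6.1 and 6.1 in non-pregnant islets, a difference of 1.20 ± 0.14 without overlap (limma adjusted p = 1.08e-07). Rbl1, the pocket protein p107, rose by 0.62 ± 0.10. Cdkn1b, the inhibitor p27, was not called (0.17 ± 0.08). Men1, menin, an inhibitor of beta-cell growth, read 8.5, 8.4, 8.7 and 8.5 at day 9.5, against 8.4, 8.2, 8.4 and 8.2 in non-pregnant islets, a difference of 0.22 ± 0.08 (limma adjusted p = 0.035). Its groups touched at 8.4, and the call ended without day 9.5 replicate 3 (0.154), day 9.5 replicate 4 (0.0681), non-pregnant replicate 2 (0.0969) or non-pregnant replicate 4 (0.13). With the array SD as a covariate its adjusted p was 0.478.

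The cell-cycle lists stood highest at day 9.5 among the days of pregnancy measured. The median difference of the mitosis list from the same non-pregnant arrays was 0.02, 0.39, 0.81, 0.46, 0.32 and 0.18 at days 3.5, 6.5, 9.5, 12.5, 15.5 and 18.5. The number of its members called higher was 0, 20, 49, 37, 27 and 14 on those days. For S phase the numbers called were 0, 5, 27, 19, 12 and 4. Against the mean of the arrays of days 6.5 and 12.5, which uses no non-pregnant array, 41 of 54 mitosis genes and 20 of 34 S-phase genes were called higher at day 9.5. In that comparison 7.92% of all genes were called higher and 7.06% lower. Top2a was 0.88 above the 2 neighbouring days (limma adjusted p = 0.000262), Mki67 0.61 and Hmmr, a spindle protein, 0.85. The SD over genes was 1.87 to 1.95 on the day 9.5 arrays, 1.81 to 1.88 on the day 6.5 arrays and 1.81 to 1.86 on the day 12.5 arrays, and with it as a covariate 97 genes in all were called in this comparison, in place of 2987.

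**Figure D3:**
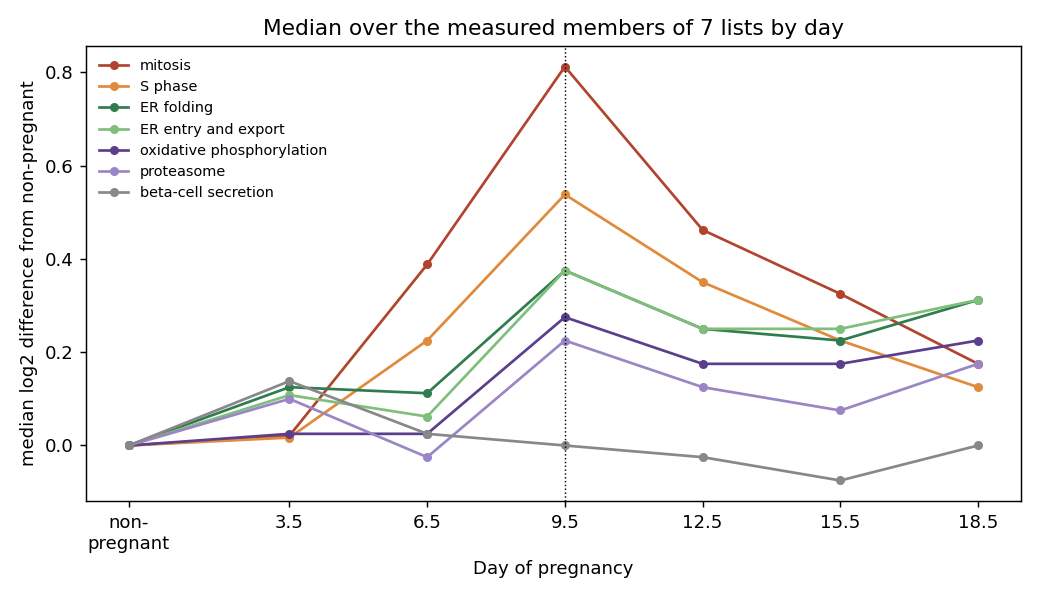
Median log2 difference from non-pregnant islets over the measured members of 7 gene lists at 6 days of pregnancy, all against the same 4 non-pregnant arrays, with a dotted line at day 9.5. Mitosis reaches 0.81 at day 9.5, between 0.39 at day 6.5 and 0.46 at day 12.5, and folding in the endoplasmic reticulum (ER) reaches 0.38, against 0.31 at day 18.5.

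Genes of the secretory pathway rose with smaller differences. Of 32 genes of protein folding in the endoplasmic reticulum (ER) 25 rose and 0 fell, with a median of 0.38, and all 32 differences were above 0. It was 12 with the array SD as a covariate and 16 after another quantile normalization. Leaving out 1 array at a time gave 19 to 24. Derl3 read 7.7, 7.6, 7.8 and 7.8 at day 9.5, against 6.6, 6.7, 6.5 and 6.6 in non-pregnant islets, a difference of 1.12 ± 0.09 (limma adjusted p = 2.52e-10). Hspa5, whose array values were far up the scale, read 12.3, 12.4, 12.5 and 12.5 at day 9.5, against 11.9, 12.1, 12.0 and 12.1 in non-pregnant islets, a difference of 0.40 ± 0.07 (limma adjusted p = 0.000168). In both genes, whose promoters hold the stress element shown above, the groups did not overlap. Fkbp11, a prolyl isomerase of the secretory pathway, read 8.2, 8.4, 8.3 and 8.4 at day 9.5, against 7.4, 7.4, 7.2 and 7.3 in non-pregnant islets, a difference of 1.00 ± 0.09. Edem1, a lectin that passes misfolded glycoproteins to degradation, rose by 0.88 ± 0.08, and Sdf2l1, a partner of Hspa5, by 0.82 ± 0.09.

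Sensors of ER stress moved unequally. Ern1, the sensor IRE1, read 9.9, 9.7, 9.9 and 10.1 at day 9.5, against 9.2, 9.2, 9.3 and 9.3 in non-pregnant islets, a difference of 0.65 ± 0.09. Xbp1, the transcription factor whose RNA IRE1 splices, read 10.8, 10.9, 11.0 and 11.0 at day 9.5, against 10.6 on all 4 non-pregnant arrays, a difference of 0.32 ± 0.08. Its adjusted p was 0.00548 in the values as deposited and 0.272 with the array SD as a covariate. Atf6 (0.03) was not called, nor were Canx (0.05) and Ero1b (0.07), both of which hold the stress element letters in their promoters. Of 23 targets of ATF4, the factor of the amino acid and stress response, 7 rose and 0 fell, beside 11.6% of all genes called higher. The number that rose was 4 without day 9.5 replicate 4 and 5 after another quantile normalization, and with the array SD as a covariate 1 rose and 1 fell. Ddit3 (-0.12), Atf4 (0.12) and Trib3 (0.00), which mark a strong stress response, were not called.

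Entry into and export from the ER rose in all its groups of genes. Of 44 genes 34 rose and 0 fell with a median of 0.38. The covariate left 18 called higher, and another quantile normalization left 23. All 7 subunits of oligosaccharyl transferase, which attaches N-glycans, rose, as did 15 of 20 genes of the translocon and signal peptidase and 12 of 17 genes of COPII vesicles and cargo receptors. Dad1, a subunit of that transferase, read 10.8, 10.9, 10.9 and 10.9 at day 9.5, against 10.2, 10.3, 10.3 and 10.0 in non-pregnant islets, a difference of 0.68 ± 0.07. Rpn1, another subunit, rose by 0.60 ± 0.08. Ssr4 of the translocon complex read 10.4, 10.6, 10.5 and 10.6 at day 9.5, against 9.8, 10.0, 10.0 and 9.8 in non-pregnant islets, a difference of 0.62 ± 0.07. None of these groups overlapped. The number of the 44 genes called higher was 0, 0, 34, 22, 20 and 33 at days 3.5, 6.5, 9.5, 12.5, 15.5 and 18.5, and 28 were called higher against the mean of days 6.5 and 12.5.

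Cholesterol genes divided by role. Of 17 genes of synthesis 9 rose and 0 fell, whereas of 4 genes of export 0 rose and 2 fell. Over all genes, 11.6% were called higher and 7.74% lower. Of the 2 export genes, Abca1 alone was called without day 9.5 replicate 2, 3 or 4 or non-pregnant replicate 3 or 4. Dhcr7, the last enzyme of the pathway, read 8.4, 8.2, 8.3 and 8.5 at day 9.5, against 7.6, 7.5, 7.5 and 7.3 in non-pregnant islets, a difference of 0.88 ± 0.10 (limma adjusted p = 8.85e-08). Sqle, a rate-limiting monooxygenase of the pathway, rose by 0.57 ± 0.08. After another quantile normalization 8 synthesis genes were called. With the array SD as a covariate 4 were called, Dhcr7 and Sqle among them, and Idi1 (adjusted p = 0.157) and Hmgcs1 (adjusted p = 0.095) were not. Abca1 (chr4:53030789-53159988), the pump that exports cholesterol to lipoproteins, read 8.7, 8.5, 8.6 and 8.9 at day 9.5, against 9.3, 9.5, 9.6 and 9.4 in non-pregnant islets. Every day 9.5 array was lower, and this was the largest fall among called genes whose groups did not overlap (-0.78 ± 0.10, limma adjusted p = 3.03e-06). Srebf2, the transcription factor of cholesterol synthesis, was not called (0.07).

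Mitochondrial and proteasome genes rose together in small steps, and their counts changed with how the spread of the arrays was treated. Of 73 genes of oxidative phosphorylation 41 rose and 0 fell, with a median of 0.28. The count was 24 without non-pregnant replicate 4, 17 after another quantile normalization and 5 with the array SD as a covariate. Calls were spread over 17 of 35 genes of complex I, 14 of 23 of complexes II to IV and 10 of 15 of ATP synthase. Cycs, cytochrome c, was the largest and kept its call with the covariate. It read 8.5, 9.2, 9.0 and 8.8 at day 9.5, against 8.0, 8.1, 8.0 and 7.9 in non-pregnant islets, a difference of 0.88 ± 0.12 without overlap. Atp5pb, a stalk subunit of ATP synthase, read 9.2, 9.5, 9.6 and 9.7 at day 9.5, against 8.9, 9.0, 8.8 and 8.9 in non-pregnant islets, a difference of 0.60 ± 0.10. Its adjusted p was 7.93e-05 in the values as deposited and 0.0802 with the covariate.

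Other housekeeping groups showed the same pattern of small differences. Of 78 mitochondrial ribosome genes 30 rose (17 without day 9.5 replicate 3, 16 without day 9.5 replicate 4, 14 without non-pregnant replicate 4). Of 31 proteasome genes 20 rose, and 9 rose without any one of day 9.5 replicate 3, day 9.5 replicate 4 or non-pregnant replicate 4. Of 17 genes of the tricarboxylic acid cycle 11 rose (7 without day 9.5 replicate 3 or non-pregnant replicate 4), and of 18 tRNA synthetases 11 rose (6 without day 9.5 replicate 4, 7 without non-pregnant replicate 4). In all 4 lists 0 fell, and the medians were 0.22 or 0.25. With the array SD as a covariate the counts were 3, 1, 1 and 1, in the order given, and after another quantile normalization 15, 6, 4 and 5. Suclg1, a subunit of succinyl-CoA ligase, was the tricarboxylic acid cycle gene that kept its call. It read 8.5, 8.8, 8.9 and 8.8 at day 9.5, against 8.2, 8.2, 8.3 and 7.9 in non-pregnant islets, a difference of 0.60 ± 0.09. Psmb2, a core subunit of the proteasome, read 8.6, 8.7, 9.0 and 8.8 at day 9.5, against 8.3, 8.4, 8.4 and 8.1 in non-pregnant islets, a difference of 0.48 ± 0.08, and it also kept its call. Of 29 ribosome biogenesis genes 4 rose and 0 fell, beside 11.6% of all genes called higher. The number that rose was 8 without day 9.5 replicate 1, 2 without day 9.5 replicate 3 or non-pregnant replicate 2, and 1 without day 9.5 replicate 4 or non-pregnant replicate 4. It was 0 with the covariate and 1 after another quantile normalization.

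**Figure D4:**
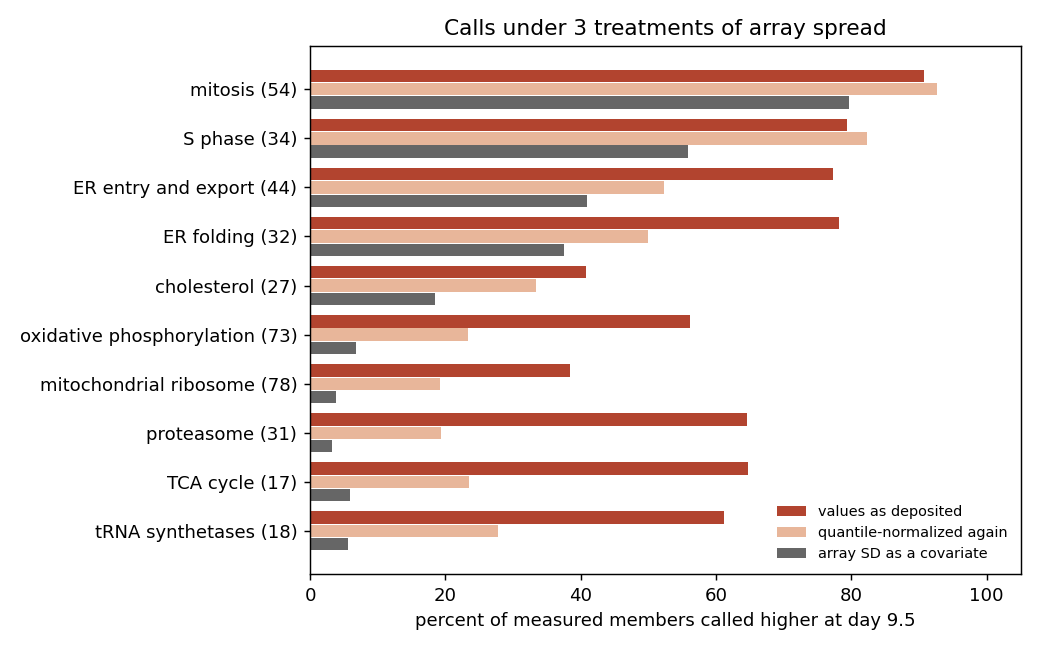
Percent of the measured members of 10 gene lists (number in brackets) called higher at day 9.5 in the values as deposited, after another quantile normalization, and with each array's SD as a covariate. With the covariate mitosis has 43 calls in place of 49, whereas oxidative phosphorylation has 5 in place of 41 and the proteasome 1 in place of 20.

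The hormone genes below and the beta-cell markers Ucn3 and Slc2a2 were not called. Among the other beta-cell markers, Pdx1 was called higher (limma adjusted p = 0.0276), and Mafa and Nkx6-1 are described further on. Pdx1 lost its call with the array SD as a covariate or after another quantile normalization. It also lost its call without day 9.5 replicate 3 or 4 or non-pregnant replicate 2, 3 or 4. Ins2, an insulin gene, read 12.7 on all 4 day 9.5 arrays, against 11.9, 12.7, 12.7 and 12.7 in non-pregnant islets. Iapp, amylin, read 13.9 on all 4 day 9.5 arrays, against 13.0, 13.8, 13.9 and 13.9 in non-pregnant islets. Gcg (glucagon) and Sst (somatostatin) showed the same shape, and in all 4 genes non-pregnant replicate 1 was the low array and the others overlapped. Ucn3, a marker of mature beta cells, read 10.7, 10.6, 10.7 and 10.7 at day 9.5, against 10.6, 10.8, 10.7 and 10.7 in non-pregnant islets. Slc2a2, the glucose transporter GLUT2, differed by -0.15 ± 0.07 (limma adjusted p = 0.115). None of 6 alpha-cell, 4 delta-cell or 4 PP and epsilon-cell markers was called.

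Secretion and identity genes of the beta cell were called about as often as all genes, of which 19.4% were called. Of 32 secretion genes 4 rose and 2 fell, with a median of 0.00. Of 23 transcription factors 4 rose and 1 fell. Of all genes 11.6% were called higher and 7.74% lower. The secretion genes that fell numbered 0 without day 9.5 replicate 3 and 1 without day 9.5 replicate 2 or 4 or non-pregnant replicate 2, 3 or 4. The transcription factors that fell numbered 0 without day 9.5 replicate 2 or 3 or non-pregnant replicate 2 or 3, and 2 without non-pregnant replicate 4. With the array SD as a covariate 3 secretion genes rose and 0 fell. After another quantile normalization 3 rose and 9 fell, whereas with arrays centred on their medians 10 rose and 0 fell. Of the transcription factors, 2 rose and 3 fell after that normalization, 2 rose and 1 fell with the covariate, and 4 rose and 0 fell with the arrays centred. For the secretion genes, without day 9.5 replicate 1 the number that rose was 7. Pcsk1, a convertase of proinsulin, read 11.9, 11.8, 11.9 and 12.0 at day 9.5, against 11.2, 11.3, 11.4 and 11.4 in non-pregnant islets, a difference of 0.57 ± 0.07. Gpr119, a lipid receptor that promotes insulin release, read 9.5, 9.6, 9.7 and 9.4 at day 9.5, against 8.6, 8.8, 8.6 and 8.4 in non-pregnant islets, a difference of 0.95 ± 0.12. Both genes kept the groups apart. Among transcription factors Ovol2, a repressor of mesenchymal genes, read 7.8, 8.0, 8.1 and 8.0 at day 9.5, against 7.2, 6.9, 6.9 and 6.9 in non-pregnant islets, a difference of 1.00 ± 0.09. Mnx1, a factor of beta-cell identity, rose by 0.72 ± 0.12. Mafa, an activator of insulin genes, read 9.1, 9.0, 8.9 and 9.0 at day 9.5, against 9.0, 8.3, 8.4 and 8.5 in non-pregnant islets. Its call (0.45 ± 0.12, limma adjusted p = 0.0102) met an overlap at non-pregnant replicate 1 and was lost with the array SD as a covariate (adjusted p = 0.477). Nkx6-1 was not called (-0.03 ± 0.08).

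Acinar markers separated the arrays more than the groups. Of 24 acinar markers 1 rose and 0 fell, beside 11.6% of all genes called higher and 7.74% lower. The list's mean was 6.25 to 9.29 on the day 9.5 arrays and 7.48 to 9.32 on the non-pregnant arrays. The number that fell was 4 without day 9.5 replicate 2, and 1 without non-pregnant replicate 3 or with the acinar mean as a covariate. Cpb1, a digestive carboxypeptidase, read 7.0, 11.5, 10.3 and 10.2 at day 9.5, against 11.2, 11.6, 9.3 and 11.3 in non-pregnant islets. Day 9.5 replicate 1 was lowest of the 8 arrays and non-pregnant replicate 3 was the next. Bhlha15, the acinar and secretory factor Mist1, was the marker called. It read 8.8, 8.8, 8.9 and 9.1 at day 9.5, against 8.5, 7.5, 7.7 and 8.3 in non-pregnant islets, a difference of 0.90 ± 0.16 (limma adjusted p = 0.000138), and did not follow Cpb1 over the arrays. With the acinar mean as a covariate 3762 genes were called. Against the mean of days 6.5 and 12.5, the acinar serine protease genes Try5 (-2.16) and Prss2 (-1.49) were the largest falls, and both were lowest on day 9.5 replicate 1.

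Of the other cell types, 0 of 15 endothelial, 5 Schwann and neural and 3 erythroid markers were called. Of 15 stellate and 10 lymphocyte markers 0 rose, with 2 lower in each, beside 7.74% of all genes called lower. No stellate marker was lower without day 9.5 replicate 2, 3 or 4 or non-pregnant replicate 2 or 3 (1 without non-pregnant replicate 4), and no lymphocyte marker was without day 9.5 replicate 4 or non-pregnant replicate 4 (1 without day 9.5 replicate 3 or non-pregnant replicate 1 or 2). Among 13 macrophage markers 2 rose, beside 11.6% of all genes called higher. C1qa (chr4:136895916-136898844), a chain of complement C1q, read 9.7, 9.8, 9.6 and 9.6 at day 9.5, against 8.5, 8.9, 8.6 and 8.4 in non-pregnant islets. The groups were 0.7 apart and differed by 1.07 ± 0.11 (limma adjusted p = 2.88e-08). The partner chains moved less: C1qb differed by 0.20 and was not called, and C1qc differed by 0.35, called at an adjusted p of 0.0461 that was 0.0632 or more without day 9.5 replicate 1, 3 or 4 or non-pregnant replicate 1, 3 or 4. The macrophage genes Csf1r (-0.03) and Cd68 (-0.03) were not called. Of 10 ductal markers 2 rose and 0 fell, with a median of -0.04, beside the same 11.6% of all genes called higher. Krt18, a keratin of simple epithelia, rose by 0.60 ± 0.10, and Epcam, an epithelial adhesion molecule, by 0.42 ± 0.09, with an adjusted p of 0.132 with the array SD as a covariate. Muc1 (-0.28 ± 0.11) and Krt7 (-0.12 ± 0.09) were not called. In the ductal list 1 marker fell without day 9.5 replicate 1 or non-pregnant replicate 1, and 1 rose and 1 fell with the array SD as a covariate.

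The interferon response genes Irf7 and Cxcl10 were highest on 1 of the 4 day 9.5 arrays, whereas Irf9 was raised on all 4. Of 22 genes of that response and of antigen presentation 7 rose and 1 fell, beside 11.6% of all genes called higher and 7.74% lower. The median was 0.31, and 20 differences were above 0. The fall was not called without day 9.5 replicate 3 or 4 or non-pregnant replicate 3 or 4. Without day 9.5 replicate 1 or non-pregnant replicate 3 the number that rose was 4. The covariate of array SD left 5 higher and 0 lower, and with arrays centred on their medians 14 rose and 0 fell. The list's mean was 6.75 to 7.50 on the day 9.5 arrays and 6.74 to 6.77 on the non-pregnant arrays. Irf7, a transcription factor of the response, read 8.4, 6.7, 7.1 and 6.6 at day 9.5, against 6.2, 6.4, 6.4 and 6.7 in non-pregnant islets. Day 9.5 replicate 1 was the highest array, and the groups overlapped. Its difference was 0.78 ± 0.25 (limma adjusted p = 0.0281), and 0.38 (adjusted p = 0.158) without that array. Its adjusted p was also past 0.05 without day 9.5 replicate 3 (0.0509) or non-pregnant replicate 1 (0.0641), 2 (0.0505) or 3 (0.0535). Cxcl10, an interferon-induced chemokine outside the list, read 8.1, 5.1, 6.8 and 5.2 at day 9.5, against 4.8, 4.8, 4.9 and 5.5 in non-pregnant islets. Its difference of 1.30 ± 0.40 (limma adjusted p = 0.022) became 0.70 (adjusted p = 0.118) without day 9.5 replicate 1 and 1.13 (adjusted p = 0.0786) without replicate 3. Irf9, a subunit of the interferon-activated factor ISGF3, read 7.6, 7.3, 7.4 and 7.5 at day 9.5, against 6.9, 6.9, 6.7 and 6.9 in non-pregnant islets. It was higher on each day 9.5 array, by 0.60 ± 0.10 (limma adjusted p = 8.08e-05). Tap1, a gene of antigen presentation, was also called higher (limma adjusted p = 0.000642). No alternative setting ended the call of Irf9 or Tap1. The array with the highest interferon genes was the one with the lowest acinar markers, and the part of either in the other results was not tested.

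**Figure D5:**
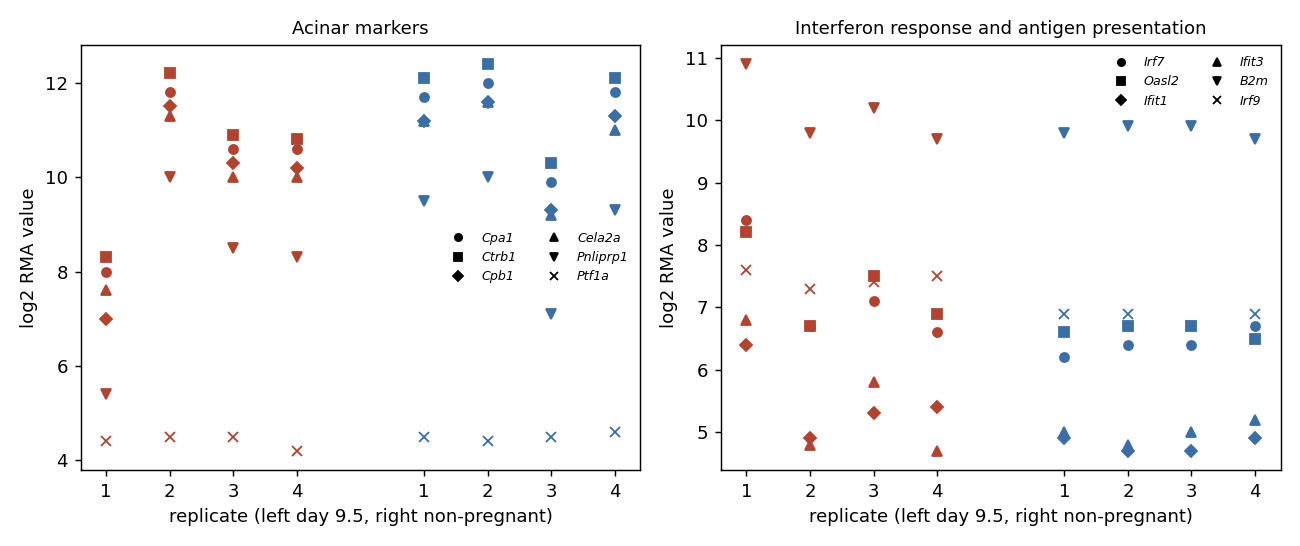
Log2 RMA values of 6 acinar markers (left panel) and 6 interferon and antigen presentation genes (right panel) on the 4 day 9.5 arrays and then the 4 non-pregnant arrays. Day 9.5 replicate 1 reads 7.0 for Cpb1 against 10.2 to 11.5 on its other replicates, and 8.4 for Irf7 against 6.6 to 7.1, while Irf9 reads 7.3 to 7.6 on all 4 day 9.5 arrays.

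Falls were smaller than rises. Of 71 called genes that differed at least 2-fold 70 were higher. The exception was Ifnz (an interferon gene), which read 6.1, 6.1, 5.8 and 6.0 at day 9.5, against 5.9, 8.1, 7.3 and 7.9 in non-pregnant islets, with non-pregnant replicate 1 inside the day 9.5 range. Ifnz lost its call with the array SD as a covariate (adjusted p = 0.317). Among called genes without overlap, Pcdh15, a protocadherin, read 6.7, 6.7, 6.8 and 6.7 at day 9.5, against 7.5, 7.5, 7.4 and 7.3 in non-pregnant islets, a difference of -0.70 ± 0.10. Vsnl1, a neuronal calcium sensor, read 6.9, 6.7, 7.0 and 6.9 at day 9.5, against 7.5, 7.7, 7.5 and 7.4 in non-pregnant islets, a difference of -0.65 ± 0.10. Tmem229b read 9.4 on all 4 day 9.5 arrays, against 10.0, 9.9, 10.0 and 10.0 in non-pregnant islets, a difference of -0.57 ± 0.12. These genes kept their calls with the array SD as a covariate. The remaining largest falls were of -0.75 to -0.57 and included the microRNA genes Mir297b and Mir301b, the olfactory receptor gene Olfr767, the cannabinoid receptor gene Cnr2, the nicotinic receptor gene Chrna4 and Reln, which codes for reelin. Of these 6, Reln kept its call with the array SD as a covariate (adjusted p = 0.0426).

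Single genes of smaller lists also moved. Rgs2, a regulator of G protein signalling, read 8.4, 8.4, 8.8 and 8.8 at day 9.5, against 8.8, 9.9, 10.0 and 9.2 in non-pregnant islets, a difference of -0.88 ± 0.27 (limma adjusted p = 0.0221). The groups met at 8.8, and the adjusted p was 0.0516 without day 9.5 replicate 2, 0.0721 without non-pregnant replicate 2 and 0.0856 without non-pregnant replicate 3. Against the mean of days 6.5 and 12.5 Rgs2 was 0.93 higher at day 9.5 (adjusted p = 0.00951). Its differences from non-pregnant islets were -1.55 and -2.05 on those days. Jun, an immediate-early transcription factor, read 7.1, 7.2, 7.1 and 7.1 at day 9.5, against 6.4, 6.6, 6.3 and 6.6 in non-pregnant islets, a difference of 0.65 ± 0.10. In its list of 25 genes 2 rose and 5 fell, beside 11.6% of all genes called higher and 7.74% lower. With the array SD as a covariate 1 rose and 1 fell, and 1 rose without day 9.5 replicate 3 or 4 or non-pregnant replicate 4. Nr1d1, the clock repressor REV-ERB alpha, read 8.5, 7.8, 8.4 and 8.5 at day 9.5, against 8.8, 8.9, 9.1 and 8.8 in non-pregnant islets, a difference of -0.60 ± 0.14 (limma adjusted p = 0.003). Of 17 clock genes 1 rose and 1 fell, beside the same shares of all genes. With single arrays left out 0 to 1 rose and 1 to 2 fell. The clock genes that fell numbered 4 after another quantile normalization and 3 with the array SD or the acinar mean as a covariate, with array weights or without the dimmest 25% of genes, and none rose after that normalization or with the array SD. The time of day of islet isolation is not given in the sources used here.

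Imprinted genes, expressed from 1 parental copy, gave 3 falls and 0 rises among 16 measured. Of all genes 7.74% were called lower and 11.6% higher. Zim1, a zinc finger gene beside Peg3, read 8.3, 8.5, 8.3 and 8.5 at day 9.5, against 9.2, 9.2, 8.7 and 8.6 in non-pregnant islets, a difference of -0.52 ± 0.12. Peg3 itself read 11.3, 11.2, 11.3 and 11.4 at day 9.5, against 11.5, 11.6, 11.5 and 11.6 in non-pregnant islets, a difference of -0.25 ± 0.07. Neither overlapped. Nnat, neuronatin, read 7.6, 7.8, 8.0 and 7.7 at day 9.5, against 8.4, 8.7, 8.5 and 7.5 in non-pregnant islets, a difference of -0.50 ± 0.16 (limma adjusted p = 0.0276). Non-pregnant replicate 4 lay below all day 9.5 arrays. The adjusted p of Nnat was 0.114 with only the 8 arrays compared, 0.0844 with arrays centred on their medians and 0.0602 to 0.117 without day 9.5 replicate 1 or 4 or non-pregnant replicate 1, 2 or 3. Peg3 lost its call without day 9.5 replicate 2 (adjusted p = 0.0527) or non-pregnant replicate 4 (adjusted p = 0.0582), and also with arrays centred on their medians. Of 16 genes that beta cells normally keep silent, 0 rose and 3 fell, beside those same shares of all genes. Of these 16 genes 1 fell without day 9.5 replicate 4 or non-pregnant replicate 3, and 0 fell with the array SD as a covariate.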

How the data were processed

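Pancreatic islet RNA was read on the Affymetrix Mouse Gene 1.0 ST platform, and the deposited table holds log2 values that the authors made by RMA, a method that includes quantile normalization by design, in Affymetrix Expression Console, per the submitters' processing notes, rounded to 1 decimal. Of 35556 probe sets, 21789 had 1 gene symbol in GEO's platform annotation, 1621 had several and 12146 had none. Probe sets with 1 symbol gave 19938 genes, and for the 999 with more than 1 probe set, the brightest on average was used. The precision is limited by the number of arrays.

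From these values limma 3.58.1 in R 4.3.3 fitted group means over 31 arrays of 8 groups of C57bl6/J mice, which share 1 estimate of the spread. Day 9.5 was contrasted with the non-pregnant arrays and with the mean of days 6.5 and 12.5. Genes were called at an adjusted p under 0.05. Folds are 2 to the power of the log2 difference. The fit was tested on simulated data with known changes. The 942 members of 39 gene lists, of which 888 were measured, and the genes described were chosen with earlier results of these data known, and the other 54 were not analysed here. The genes named are the 20 largest rises and 15 largest falls called without overlap of the groups, at most 6 called members of each list or role, defining markers, a set list of pregnancy genes and the 10 largest each way against days 6.5 and 12.5. Some genes named for a contrast with their list (such as uncalled members) were picked after their values were seen. Promoter sequences are RefSeq's. Arrays with the same replicate number did not deviate together (correlations of -0.248, 0.019, 0.081 and -0.336 over genes for replicates 1 to 4), so the numbers were not treated as pairs. Alternatives were another quantile normalization, centring, the SD or acinar mean of each array as a covariate, other gene filters, probe set rules, variance models and sets of arrays, and each array left out.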

Additional observations from a re-analysis of the deposited data

Results flagged for a closer look

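In 129 genes described above, the 4 arrays of each group were tested for 1 array apart from the other 3 with Dixon's test. Chance flags about 1 in 20 groups, and 45 of 258 groups were flagged. The values carry 1 decimal, and 22 of the flagged groups span only 0.1, which 3 equal values and a step of 1 decimal give.

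Flagged groups that span over 0.3 numbered 10. Non-pregnant replicate 1 was the low array for 4 hormone genes, at 11.9 for Ins2, 13.0 for Iapp, 13.0 for Gcg and 12.9 for Sst. Day 9.5 replicate 1 was the low array for Tph1 (8.0) and Anln (5.8). Nr1d1 was low at 7.8 on day 9.5 replicate 2, and Mir297b at 4.9 on day 9.5 replicate 3. Non-pregnant replicate 4 was the high array for Cxcl10 (5.5) and Mir301b (6.1).

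Flagged groups that span 0.2 or 0.3 numbered 13. At day 9.5 the array apart read 8.7 for Atf4, 9.3 for Car8 and 7.0 for Rbl1. In non-pregnant islets it read 6.6 for C1qb, 8.0 for Car8, 6.3 for Cdkn2c, 9.4 for Edem1, 7.3 for Idi1, 6.7 for Irf9, 9.8 for Nkx6-1, 7.2 for Ovol2, 8.0 for Pts and 11.8 for Slc2a2.

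In the groups that span 0.1, the array apart at day 9.5 read 10.2 for Ccnd1, 10.8 for Dad1, 13.9 for Gcg, 9.4 for Ghr, 7.2 for Jun, 9.7 for Krt18, 6.8 for Pcdh15, 7.2 for Plk1, 6.6 for Pttg1, 9.6 for Qdpr, 13.5 for Sst, 7.2 for Stat5a and 10.6 for Ucn3. In non-pregnant islets it read 9.5 for Akt1, 8.8 for Cdkn1b, 6.7 for Csf1r, 5.2 for Foxm1, 3.6 for Hmmr, 6.7 for Pttg1, 9.7 for Rpn1, 7.1 for Slc18a1 and 9.9 for Tmem229b.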

How the results depend on the processing

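The count of genes called between day 9.5 and non-pregnant islets, 3864 in the values as deposited, was 2356 after another quantile normalization, 793 with the array SD as a covariate and 2593 with only the 8 arrays compared. Against the mean of days 6.5 and 12.5 the count was 2987 as deposited, 1261 after another quantile normalization and 97 with the array SD as a covariate. Leaving out 1 array at a time gave 1930 to 4587 genes against non-pregnant islets, with 1930 without non-pregnant replicate 4, 1973 without day 9.5 replicate 4 and 2268 without day 9.5 replicate 3. Against the neighbouring days it gave 795 to 3687, with 795 without day 9.5 replicate 4 and 1087 without replicate 3. The other alternatives gave 3527 to 4249 and 2441 to 3506 genes. The naming rule picked 364 genes for both comparisons, of which 248 were called against non-pregnant islets. The covariate ended 126 of these 248 calls and the second quantile normalization 60, and the cause was not tested. Derl2 (-0.043, adjusted p = 0.91) and Psmc6 (-0.071, adjusted p = 0.732) reversed their sign with the covariate. With the replicate number as a block, 3805 genes were called against non-pregnant islets and 2954 against the neighbouring days, and 2 of the 248 calls ended. Same-numbered arrays share only a number. Dim probe sets near background limit what falls, or a lack of difference, can show among the dimmest genes.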

Other observations

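For the lists not described above, the share of all genes called was 11.6% higher and 7.74% lower. In the brightest of the 4 bins by level, 1296 of 4981 genes were called higher. Of 24 spliceosome genes 7 were called higher and 0 lower, with 3 higher without day 9.5 replicate 3 or non-pregnant replicate 4 and 2 with the array SD as a covariate. Of 16 genes of purine and pyrimidine synthesis 5 were called higher and 0 lower, and 1 was with the covariate. Of 7 genes of the Reg family, secreted proteins of injured or exocrine pancreas, 0 were called higher and 1 lower, a call that ended without day 9.5 replicate 2 or 4 or non-pregnant replicate 4.

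Tac1, the gene of substance P and neurokinin A, read 5.0, 5.4, 6.8 and 4.9 at day 9.5, against 5.2, 4.9, 5.7 and 4.1 in non-pregnant islets. The groups overlapped and the gene was not called (0.55 ± 0.31), with day 9.5 replicate 3 as the highest array.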
